A study of Mus musculus with 14 samples.

Results

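The genes described here are 10 targets of PPARA in mouse liver, namely Cyp4a10, Cyp4a14, Cyp4a31, Cyp4a32, Acot1, Acot2, Acot3, Vnn1, Pdk4 and Fgf21. They were found by the gene symbol that the annotation of the array platform gives to a probe set, a group of short DNA probes that reads the transcripts of a gene. Each of the 10 genes had 1 probe set among the 22206 that were tested, which stand for 19505 named genes and some unnamed transcripts. The animals were 14 male mice of the strain C57BL/6N, 10 weeks old, and liver RNA was measured on Clariom S mouse arrays, 1 per animal. All mice wore adjustable clothes from chest to waist and were fitted with them under isoflurane. In the compression group (n = 7) the clothes were tightened around the trunk, and in the no-compression group (n = 7) they were worn without added pressure. Livers were taken after 8 hours, in the light period in which mice rest. Both groups had free access to chow. For this short compression in the light period the study reported significantly less food eaten and more body weight lost with compression. Feeding was therefore not equal between the groups. How much each mouse ate was not analysed here, and the part of food intake in the differences between the groups was not tested.

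PPARA is a nuclear receptor of hepatocytes that is switched on by fatty acids. It pairs with a retinoid X receptor on DNA and raises the transcription of genes that oxidize fatty acids, and it is best known for its part in the response of the liver to fasting. The Cyp4a enzymes hydroxylate the far end of fatty acids in the endoplasmic reticulum, and Cyp4a10 and Cyp4a14 are classical genes that rise when mice are given PPARA agonists. The Acot enzymes split acyl-CoA into free fatty acid and coenzyme A. Acot1 works in the cytosol, Acot2 in mitochondria and Acot3 in peroxisomes. Vnn1 is a pantetheinase that recycles the vitamin part of coenzyme A, Pdk4 is a kinase that shuts off pyruvate dehydrogenase, and Fgf21 is a hormone that the liver secretes in fasting.

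The members of the 2 families lie side by side in the genome. In RefSeq on GRCm38.p6, Cyp4a14, Cyp4a10, Cyp4a31 and Cyp4a32 lie within 136.3 kb of chromosome 4, and Acot2, Acot1 and Acot3 within 72.5 kb of chromosome 12. Close relatives of this kind can share probe signal, and whether they do on this array was not tested. RefSeq windows around the start of the gene were given for 6 of the 10 genes, and Cyp4a10, Cyp4a14, Cyp4a31 and Vnn1 had none in the table used. The windows were searched on both strands for the kind of element to which PPARA binds with its partner, a direct repeat of AGGTCA half-sites with 1 base between them. A window of 300 bases, of which 250 lie before the start, was counted as a match with at most 2 mismatches over both half-sites. This gave 0 of the 6 genes and 3.84% of 27018 promoters. The 250 bases before the start are given here, 5′ to 3′, for the 3 genes that had both a window and measurable variation between mice. Capitals mark the run closest to the repeat on either strand, which had 3 mismatches in Cyp4a32 and 4 in Acot1 and Acot3.
Cyp4a32, chr4:115600688-115600937, plus strand: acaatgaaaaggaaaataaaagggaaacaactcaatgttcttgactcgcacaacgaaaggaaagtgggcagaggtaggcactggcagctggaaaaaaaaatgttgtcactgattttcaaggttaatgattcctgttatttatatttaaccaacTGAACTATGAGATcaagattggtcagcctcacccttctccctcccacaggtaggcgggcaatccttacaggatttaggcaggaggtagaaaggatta
Acot1, chr12:84009252-84009501, plus strand: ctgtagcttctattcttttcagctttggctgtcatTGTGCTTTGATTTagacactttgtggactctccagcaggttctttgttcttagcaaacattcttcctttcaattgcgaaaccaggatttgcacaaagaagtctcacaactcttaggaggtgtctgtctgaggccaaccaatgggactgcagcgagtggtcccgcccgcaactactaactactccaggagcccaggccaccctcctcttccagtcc
Acot3, chr12:84051894-84052143, plus strand: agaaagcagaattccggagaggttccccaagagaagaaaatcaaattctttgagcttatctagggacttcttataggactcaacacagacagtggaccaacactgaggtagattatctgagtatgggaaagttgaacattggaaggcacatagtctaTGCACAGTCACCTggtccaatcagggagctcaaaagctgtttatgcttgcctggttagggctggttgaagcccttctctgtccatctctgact
Runs with at most 3 mismatches were found in 21.1% of all windows of this length and runs with at most 4 in 74.5%. A window without a match says nothing of elements elsewhere.

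The deposited log2 values come from qFarms, which condenses the probes of a probe set by factor analysis and draws the value toward a constant where the probes do not vary together. As a result only 5.58% of the tested probe sets (1238 of 22206) had a standard deviation above 0.01 over the 14 arrays, and these are called probe sets with spread. Cyp4a10, Cyp4a14, Cyp4a31, Cyp4a32, Acot1, Acot3 and Vnn1 had spread. Acot2, Pdk4 and Fgf21 did not. Acot2 stood at 8.74, Pdk4 at 6.62 and Fgf21 at 5.96 in every mouse, and none of these 3 differed between any arrays by more than 4.06e-05. Their values therefore carry no information on a change, in either direction, and the table cannot tell whether the fasting hormone or the pyruvate dehydrogenase kinase responded.

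The labelled tissue was matched by its markers. Alb and Ttr, secreted proteins of hepatocytes, stood at 13.39 and 13.21, and the mean over 10 hepatocyte markers lay between 12.96 and 12.98 on all arrays. Of the 10 markers 8 were without spread, Alb and Ttr among them. The narrow range therefore carries no information on whether the hepatocyte content was equal. A principal component analysis over these 1238 probe sets gave a first component with 57.1% of the variance, on which no-compression replicates 6, 3 and 7 stood apart at 16.7, 9.57 and 9.45, while the other 11 arrays fell between −6.73 and 2.25. Each result was therefore also computed without these 3 arrays. They were picked by their values and lie away from the compression arrays, so that leaving them out brings the groups closer by construction. Array medians lay between 6.51 and 6.52.

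All 7 PPARA targets with spread had higher means in the compression group, with log2 differences from 0.20 for Cyp4a31 to 0.61 for Acot3, and none passed the test across all probe sets. The groups overlapped for each of the 7 genes. Groups without overlap were found for 0.0766% of all tested probe sets and 0.0% of those with spread. The median difference over all 10 genes, with the 3 constant ones included, was 0.28 on the log2 scale, against −6.43e-08 over all tested probe sets and −0.00 over the probe sets with spread. Of the probe sets with spread 48.3% had a higher mean with compression. The test was limma, adjusted by Benjamini-Hochberg over 22206 probe sets with a limit of 0.05. It called 0 of the 10 genes and 0.0% of all probe sets, and the lowest adjusted p of limma among the 10 genes was 0.943. Before adjustment 3 of the 10 (Vnn1, Cyp4a14 and Cyp4a32) were higher with p under 0.05, as were 2.73% of all tested probe sets and 4.85% of those with spread.

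For Cyp4a10 and Cyp4a14, the classical pair of PPARA targets, the values of the no-compression group reached further down than those of the compression group. The log2 value of Cyp4a10 ran from 11.28 over a median of 11.59 to 11.86 with compression, and from 10.10 over 11.40 to 11.56 without it. Of the compression mice 4 lay above every no-compression mouse, and no-compression replicates 3, 5 and 6 lay below every compression mouse. The means were 11.58 ± 0.23 (SD, n = 7) and 11.16 ± 0.53 (SD, n = 7), a log2 difference of 0.42 (standard error 0.216, 95% interval −0.05 to 0.89) or 1.34-fold. The lowest mouse, no-compression replicate 6 at 10.10, carried much of this difference, which was 0.25 without it.

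Cyp4a14 ran from 11.09 over 11.44 to 11.95 with compression and from 10.53 over 10.98 to 11.54 without it. All 7 compression mice lay above the no-compression median, and 4 no-compression mice lay below every compression mouse. The means were 11.45 ± 0.30 and 11.00 ± 0.38 (SD, n = 7 each), a log2 difference of 0.45 (standard error 0.179, 95% interval 0.06 to 0.84) or 1.37-fold. The unadjusted p of limma for Cyp4a14 was 0.0257, the two-sided exact permutation test over the 14 mice gave p = 0.0315, and the adjusted p of limma was 0.943. Its lowest mouse was no-compression replicate 5, which did not stand apart on the first principal component.

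Cyp4a31 and Cyp4a32, less studied relatives in the same cluster, differed by less. Cyp4a32 ran from 10.04 over 10.07 to 10.39 with compression and from 9.51 over 9.81 to 10.36 without it. Here 5 of the 7 no-compression mice lay below every compression mouse, and replicates 1 and 4 were the exceptions. The means were 10.16 ± 0.15 and 9.88 ± 0.29 (SD, n = 7 each), a log2 difference of 0.27 (standard error 0.122, 95% interval 0.01 to 0.54). The unadjusted p of limma was 0.0435 and the exact permutation test gave p = 0.0519. Cyp4a31 ran from 8.94 over 9.33 to 9.68 with compression and from 8.66 over 9.08 to 9.58 without it. The difference of 0.20 (standard error 0.154, 95% interval −0.14 to 0.53) was smaller than the SD of either group, and it was 0.12 without no-compression replicate 6.

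**Figure D1:**
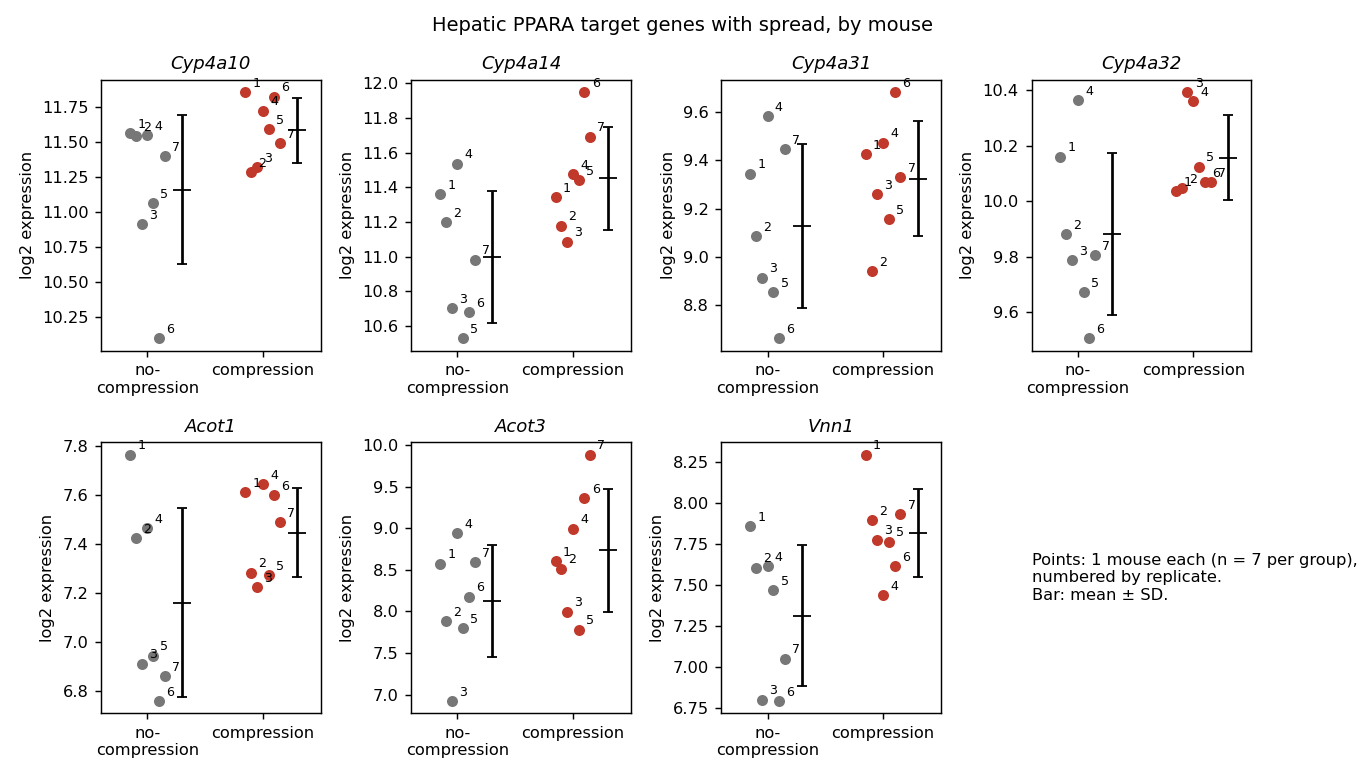
Log2 expression of the 7 PPARA targets with spread (vertical axes, 1 panel per gene) in each mouse of the no-compression and compression groups. Points are single mice numbered by replicate and bars are mean ± SD (n = 7). The groups overlap in every panel, and no-compression replicate 6 is the lowest point for Cyp4a10 (10.10), Cyp4a31, Cyp4a32, Acot1 and Vnn1.

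Acot1 and Acot3, the thioesterases of cytosol and peroxisome, had different mice at their extremes. Acot1 ran from 7.22 over 7.49 to 7.64 with compression and from 6.76 over 6.95 to 7.77 without it. The no-compression group was split for this gene. Replicates 3, 5, 6 and 7 lay at 6.91, 6.95, 6.76 and 6.86, below every compression mouse, while replicate 1 at 7.77 was the highest of all 14. The means of Acot1 were 7.45 ± 0.18 and 7.16 ± 0.38 (SD, n = 7 each), a log2 difference of 0.28 (standard error 0.158, 95% interval −0.06 to 0.63).

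Acot3 had the widest range of the 10 genes, 7.79-fold between the lowest and the highest mouse. It ran from 7.78 over 8.60 to 9.88 with compression and from 6.92 over 8.18 to 8.94 without it. Compression replicates 4, 6 and 7 lay above every no-compression mouse at 8.99, 9.36 and 9.88, and no-compression replicate 3 alone lay below every compression mouse. The means were 8.73 ± 0.74 and 8.13 ± 0.67 (SD, n = 7 each), a log2 difference of 0.61 (standard error 0.371, 95% interval −0.20 to 1.41) or 1.52-fold. It was the only one of the 7 genes whose SD was larger with compression. A larger SD without compression, found for the other 6, was also found for 66.4% of the probe sets with spread.

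Vnn1, the pantetheinase, ran from 7.44 over 7.77 to 8.29 with compression and from 6.79 over 7.47 to 7.86 without it. Compression replicates 1, 2 and 7 lay above every no-compression mouse, and no-compression replicates 3, 6 and 7 lay below every compression mouse, at 6.80, 6.79 and 7.05. The means were 7.82 ± 0.27 and 7.31 ± 0.43 (SD, n = 7 each), a log2 difference of 0.50 (standard error 0.187, 95% interval 0.10 to 0.91) or 1.42-fold. Vnn1 had the lowest unadjusted p of limma of the 10 genes, 0.0195, with p = 0.0227 in the two-sided exact permutation test and an adjusted p of limma of 0.943.

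Without no-compression replicates 3, 6 and 7 all 7 differences kept their sign but shrank. That of Cyp4a10 was 0.15 in place of 0.42, that of Cyp4a14 0.30 in place of 0.45, that of Cyp4a31 0.11 in place of 0.20 and that of Cyp4a32 0.14 in place of 0.27. For Acot1 it was 0.05 in place of 0.28, for Acot3 0.44 in place of 0.61 and for Vnn1 0.18 in place of 0.50. The lowest unadjusted p of limma among these 7 genes was then 0.2. The mean was higher with compression for 46.0% of the probe sets with spread.

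**Figure D2:**
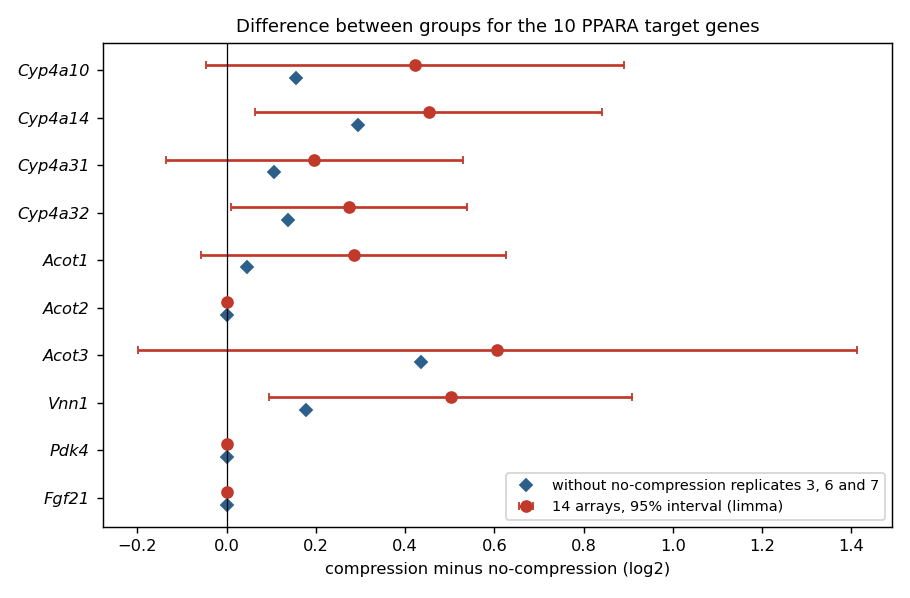
Difference in log2 expression (compression minus no-compression, horizontal axis) for the 10 PPARA targets. Circles with bars are the values over 14 arrays with the 95% interval of limma, and diamonds the values without no-compression replicates 3, 6 and 7. The 7 circles with bars lie between 0.20 and 0.61, the diamonds of the same genes between 0.05 and 0.44, and Acot2, Pdk4 and Fgf21 lie at 0 because their values are constant.

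Rank products, the method that the study used with a false discovery rate of 0.01, was written out anew. It called all 7 genes with spread higher and none of the 3 constant ones. It also called 1.31% of all tested probe sets and 23.1% of those with spread as higher, and 1.15% of all as lower. Its p-values rest on ranks over probe sets and not on the spread between mice, so these calls are no error rates for single genes.

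The same mice were low for several of the 7 genes. Each gene was standardized to its mean and SD over the 14 arrays and the 7 values of a mouse were averaged. No-compression replicate 6 had the lowest average, −1.68, and was the lowest of the 14 mice for 5 genes, all but Cyp4a14 and Acot3. Replicate 3 followed at −1.32 and was among the 3 lowest mice for all 7 genes. Replicate 5 came next at −1.02 and was among the 3 lowest for 5 genes, although on the first principal component it lay with the bulk of the arrays at −3.72. Replicate 7, which stood apart on that component, had an average of −0.42. The other 3 no-compression mice lay at −0.13, 0.57 and 0.71, within the range of the compression mice or just below it. The compression mice ran from −0.05 over a median of 0.71 to 0.97, with replicate 6 highest. The low averages were thus those of 3 or 4 of the 7 no-compression livers.

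**Figure D3:**
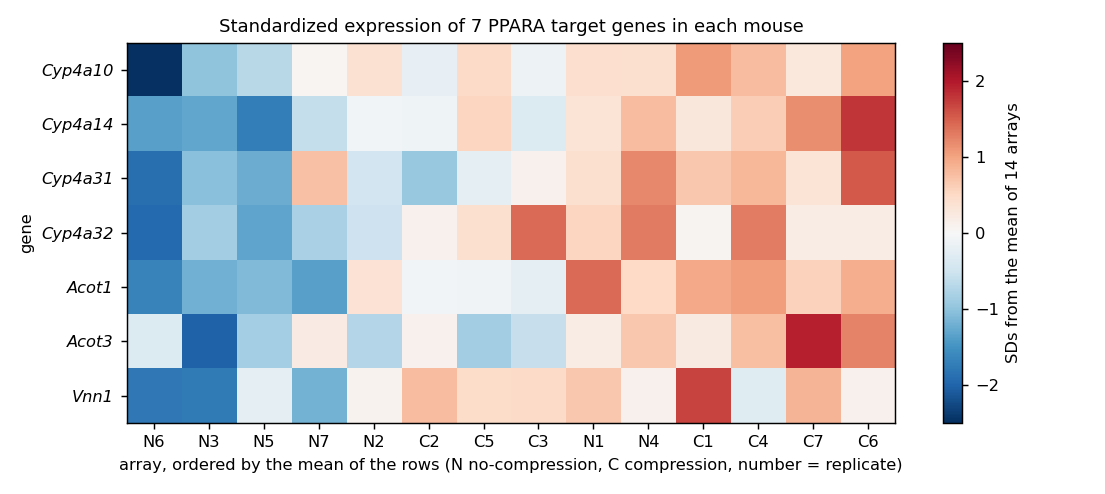
Standardized expression of the 7 PPARA targets with spread (rows) in the 14 mice (columns, ordered from left to right by the average of the rows). Colour gives the number of SDs from the mean of the 14 arrays. The columns at the left are no-compression replicates 6, 3 and 5, with averages of −1.68, −1.32 and −1.02, and the column at the right is compression replicate 6 at 0.97.

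All 21 pairwise Pearson correlations over the 14 mice were positive, from 0.395 for Cyp4a32 and Acot3 to 0.824 for Cyp4a10 and Cyp4a31, with a median of 0.693. After Benjamini-Hochberg adjustment over the 21 pairs, 17 Pearson and 13 Spearman correlations had a permutation p under 0.05. The lowest Pearson's r among the 17 was 0.573. Over all 765703 pairs of probe sets with spread, on the same 14 arrays, the median r was 0.04, 52.5% were positive, 17.9% had an r of at least that value and 31.7% had an r of at least that size with either sign. An r of at least 0.573 was thus held by 17 of the 21 pairs of members and by 17.9% of all pairs. The share of all pairs at 0.693 was not computed, and that median is given as a description. For Cyp4a10 and Cyp4a31 Pearson's r was 0.824 (permutation p = 0.00012, adjusted 0.00168) and Spearman's rho 0.78 (permutation p = 0.00154, adjusted 0.00819). It was 0.74 without the 2 mice farthest from the median of Cyp4a10, 0.794 without no-compression replicates 3, 6 and 7, and 0.801 and 0.823 within the compression and no-compression groups. Cyp4a10 and Acot1 gave r = 0.804 (permutation p = 0.00016, adjusted 0.00168) and rho = 0.811 (permutation p = 0.0009, adjusted 0.00819), with 0.752 without the 2 farthest mice and 0.843 and 0.731 within the groups. The arrays share normalization and the factor analysis of their probes, and relatives may share probe signal.

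The correlations of Vnn1 and Cyp4a32 had mixed signs within the compression group. Within the no-compression group (n = 7) all 21 correlations were positive, with a median of 0.724, against 50.7% of all pairs of probe sets with spread and a median of 0.02. Within the compression group (n = 7) 12 were positive and 9 negative, with a median of 0.0883, against 55.0% positive and a median of 0.07 over all pairs. Each of the 9 negative pairs held Vnn1 or Cyp4a32. Acot1 and Vnn1 had r = 0.89 without compression (exact permutation p = 0.00198, adjusted 0.0292) and −0.06 with it (exact permutation p = 0.892, adjusted 0.94). Over all 14 mice this pair had r = 0.749 (permutation p = 0.00328, adjusted 0.00984) and rho = 0.6 (permutation p = 0.0265, adjusted 0.0456), with 0.573 without the 2 mice farthest from the median of Acot1 and 0.278 without no-compression replicates 3, 6 and 7, so that it rested largely on those arrays. Cyp4a14 and Cyp4a32 had r = 0.911 without compression (exact permutation p = 0.00278, adjusted 0.0292) and −0.38 with it (exact permutation p = 0.422, adjusted 0.773). These 2 pairs were the only ones past the limit within the no-compression group, and 0 of 21 passed within the compression group. Whether the correlations differed between the groups was not tested, and the range of most of these genes was narrower with compression. Among Cyp4a10, Cyp4a14, Cyp4a31, Acot1 and Acot3 all correlations were positive in both groups.

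**Figure D4:**
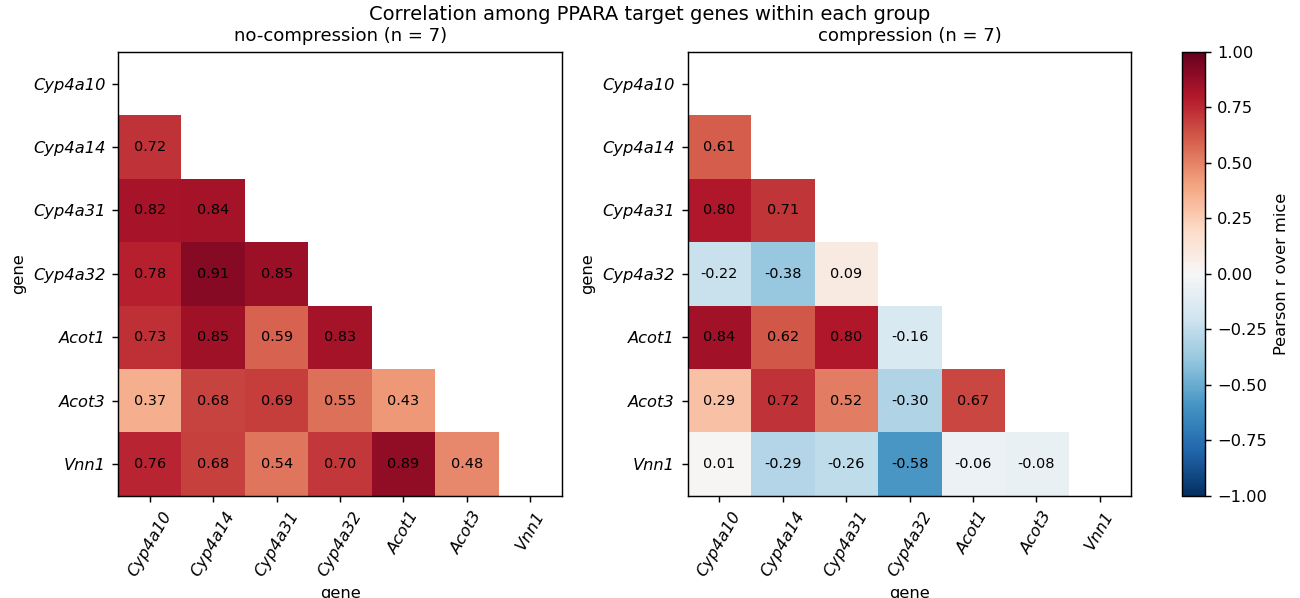
Pearson correlation between each pair of the 7 PPARA targets with spread over the 7 mice of the no-compression group (left) and of the compression group (right), with colour and number giving r. All 21 values are positive at the left, and 12 are positive and 9 negative at the right, where the negative ones lie in the row and column of Cyp4a32 and the row of Vnn1.

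Most other PPARA targets with spread also had higher means with compression. Lists of other PPARA targets held 49 measured genes, of which 29 had spread. Of the 29, 26 had a higher and 3 a lower mean in the compression group, with a median log2 difference of 0.13. Among all probe sets with spread 48.3% had a higher mean. In limma 0 of the 49 passed. Rank products called 18 of the 49 higher and 1 lower, beside 1.31% of all tested probe sets and 23.1% of those with spread called higher. These calls too are no error rates for single genes. Of the 29 with spread 6 were higher and 0 lower at an unadjusted p of limma under 0.05. Higher at that limit were 2.73% of all tested probe sets and 4.85% of those with spread. The 29 genes had a median Pearson's r of 0.74 with the average of the 7 members over the 14 mice, so they are not separate observations. Without no-compression replicates 3, 6 and 7 the split was 19 higher and 10 lower, with a median of 0.02. The share of higher means among all probe sets with spread was then 46.0%. All 7 mitochondrial and microsomal enzymes with spread had higher means, and 6 of them without the 3 arrays. The largest difference in that list was 1.07 for Cyp8b1, more than for any member, and 0.39 without the 3 arrays. Cyp8b1 stood at 9.67 ± 0.43 with compression and 8.60 ± 1.23 without it (SD, n = 7 each). Cpt1a, which commits fatty acids to mitochondrial oxidation, stood at 11.00 ± 0.12 with compression and 10.77 ± 0.16 without it (SD, n = 7 each), a difference of 0.23 on the log2 scale and 0.15 without the 3 arrays. Acadvl, an acyl-CoA dehydrogenase of long chains, and Hadha, a subunit of the trifunctional protein, differed by 0.06 and 0.03, and by −0.01 and 0.00 without the 3 arrays. Hadha differed by 0.02 without no-compression replicate 6 alone.

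Of 13 peroxisomal enzymes with spread 12 had higher means, with a median log2 difference of 0.10, and 9 had higher means without no-compression replicates 3, 6 and 7, with a median of 0.02. Among all probe sets with spread 48.3% and 46.0% had higher means in these 2 comparisons. Decr2, a dienoyl-CoA reductase, differed by 0.22, Hsd17b4, the multifunctional enzyme of peroxisomal oxidation, by 0.06, and Cat, catalase, by 0.02. Without the 3 arrays these values were 0.03 for Decr2, 0.01 for Hsd17b4 and −0.01 for Cat, and without replicate 6 alone 0.14 for Decr2 and 0.01 for Cat. Of the 9 genes of lipid binding, storage and secretion with spread 7 had higher and 2 lower means, and without the 3 arrays 4 had higher and 5 lower ones. Fabp1, the fatty acid binding protein of liver, stood at 11.28 ± 0.16 and 11.07 ± 0.61 (SD, n = 7 each), and its log2 difference of 0.21 turned to −0.14 without no-compression replicates 3, 6 and 7. Plin2, which coats lipid droplets, differed by 0.15 and by 0.10 without them. Gpd1, a glycerol-3-phosphate dehydrogenase, differed by 0.06 and by −0.11 without them.

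**Figure D5:**
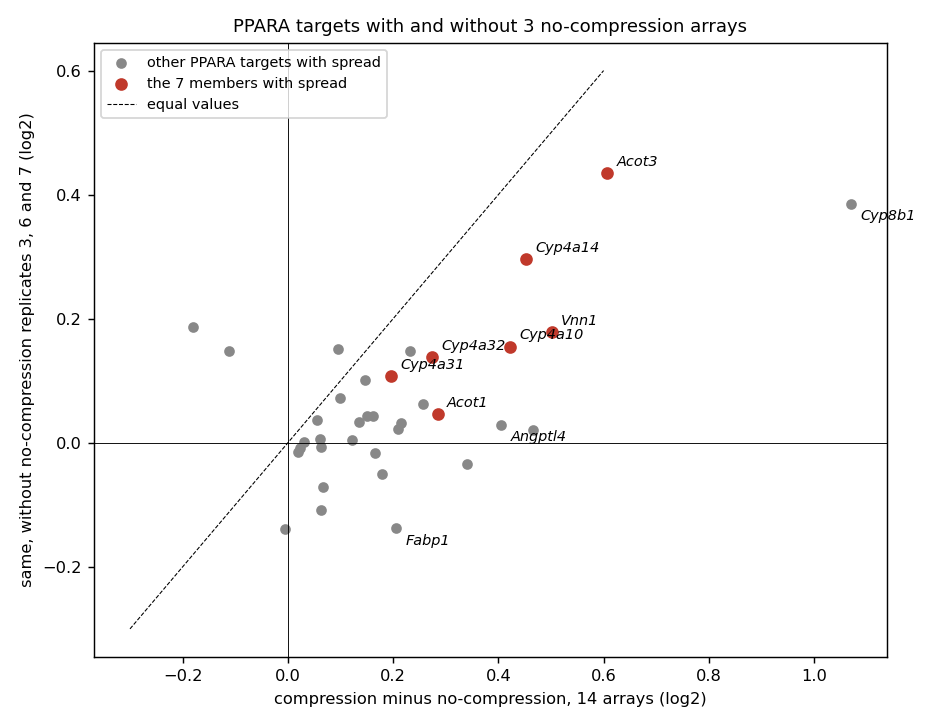
Log2 difference between the groups over 14 arrays (horizontal axis) and without no-compression replicates 3, 6 and 7 (vertical axis) for the 7 members with spread (red) and 29 other PPARA targets with spread (grey). Both axes share most arrays, so the points are not independent along them. All 7 members lie above 0 on both axes and below the dashed line of equal values, and 10 of the grey points lie below 0 on the vertical axis.

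The receptor itself had a log2 value of 10.26 ± 0.07 with compression and 10.03 ± 0.26 without it (SD, n = 7 each). The difference for Ppara was 0.23 on the log2 scale (unadjusted p of limma 0.0374, adjusted 0.943) and 0.07 without no-compression replicates 3, 6 and 7. A list of PPARA, its partners and related receptors held 13 measured genes, of which 4 had spread. Of these 3 were higher, 1 of them by only 0.01, and 1 was lower. The retinoid X receptor genes Rxra and Rxrb were without spread at 10.03 and 7.07. Nr1h4, the bile acid receptor FXR, differed by 0.23, and Nr0b2, the repressor SHP, by −0.12. Without the 3 arrays Nr1h4 differed by 0.10 and Nr0b2 by −0.25.

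Relatives of the members were less uniform. In the rest of the Cyp4 family 5 of 12 measured genes had spread, 4 with higher means with compression and 1 without the 3 arrays. Cyp4a12a, a Cyp4a gene expressed mainly in male mice, stood at 10.49 ± 0.40 with compression and 10.06 ± 0.99 without it (SD, n = 7 each), with a log2 difference of 0.43 that turned to −0.16 without no-compression replicates 3, 6 and 7. Cyp4f14 and Cyp4f15, which hydroxylate leukotrienes and other fatty acids, differed by −0.04 and 0.01, and by −0.08 and 0.05 without those arrays. Of 10 other Acot genes Acot4, a peroxisomal thioesterase for succinyl-CoA, and Acot12, a cytosolic one for acetyl-CoA, had spread and differed by 0.10 and 0.26, and by 0.07 and 0.06 without them. Vnn3, the other vanin gene, differed by 0.11 and by 0.01 without them. With Pdk4 constant, Pdk1 stood at 8.79 ± 0.17 and 8.43 ± 0.55 (SD, n = 7 each), and its difference of 0.37 turned to −0.04 without the 3 arrays. Pdk2, another pyruvate dehydrogenase kinase of liver, and Pdha1, a subunit of that dehydrogenase, differed by 0.03 and 0.08, and by 0.01 and −0.01 without them. Of the genes around Fgf21 only Fgf1, a growth factor of the same family, had spread, with a log2 difference of 0.24, and of 0.01 without the 3 arrays. None of these genes passed limma after adjustment.

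Among 1066 other named probe sets with spread, some followed the average of the 7 genes over the 14 mice closely. The likeness is given as Pearson's r with that average, as a description. The 8 most alike were 4931406C07Rik (0.918), Slc16a7 (0.908), Acsf2 (0.906), Rdh16 (0.900), Hadha (0.894), Slc25a20 (0.893), Agmo (0.888) and Usp2 (0.887). Slc16a7 carries monocarboxylates across membranes, Acsf2 activates fatty acids of medium length, Rdh16 oxidizes retinol, Slc25a20 carries acylcarnitines into mitochondria, Agmo cleaves ether lipids and Usp2 removes ubiquitin. With the group means removed these 8 had r between 0.834 and 0.903, and without no-compression replicates 3, 6 and 7 between 0.715 and 0.817. An r above 0.8 was found for 30 of the 1066, and the median of the absolute r was 0.506.

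Markers of other cells that a liver sample can hold were examined beside these results. In bulk tissue fewer cells of a type and less RNA per cell cannot be told apart. Of 7 measured adipocyte markers, Adipoq, Lep, Retn and Plin1 were without spread at 5.47, 5.47, 5.91 and 5.98, and only Car3 and Pnpla2, which hepatocytes also express, had spread. The mean of that list lay between 7.38 and 7.53 with compression and between 7.08 and 7.58 without it. Car3 and Pnpla2 both had higher means with compression over 14 arrays, and 1 of them without no-compression replicates 3, 6 and 7. Of 11 markers of Kupffer cells and macrophages 5 had spread, 1 with a higher and 4 with a lower mean with compression. This turned to 4 higher and 1 lower without the 3 arrays. The mean of this list lay between 8.18 and 8.27 with compression and between 8.17 and 8.37 without it. Of 6 neutrophil markers 3 had spread, all with lower means with compression over 14 arrays (median log2 difference −0.19) and higher ones without the 3 arrays (median 0.03). The mean of the neutrophil list lay between 6.00 and 6.09 with compression and between 5.99 and 6.29 without it. Of 8 endothelial, 8 stellate cell and fibroblast and 1 erythroid markers measured, 1 each had spread. Their log2 differences were −0.04, 0.02 and 0.01, and 0.17, 0.01 and −0.13 without the 3 arrays. Markers of cholangiocytes, of B and T cells and of the pancreas had no spread. The part of any of these cells in the differences of the 7 genes was not tested.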

How the data were processed

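Livers of 14 mice, 7 per group, were each hybridized to 1 Clariom S mouse array. The authors quantified the arrays with qFarms in R 3.4.4, the version that the submitters' processing notes name, and deposited log2 expression values. By its design qFarms includes a quantile normalization. No genome build of the probes was given in the sources used here. These values were used unchanged. Of 29129 rows 6923 were control rows and were left out. The array platform's annotation named 1 gene for 19572 of 22206 probe sets and several for 0.

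Groups and replicate numbers came from the sample titles. Compression and no-compression were compared by a linear model in limma 3.58.1 (R 4.3.3) with lmFit and eBayes, and p was adjusted by Benjamini-Hochberg over 22206 probe sets at a limit of 0.05. Limma was chosen over rank products because it measures the spread between mice. Rank products used 49 random pairings of the arrays. Permutation tests were two-sided, exact for groups of 7 and with 100000 resamples for correlations over 14 arrays. Python 3.11.15 with numpy 2.4.6, scipy 1.17.1, pandas 2.3.3 and matplotlib 3.10.9 was used. The computations were tested on simulated data. For rank products every simulated probe set had the same noise, unlike the probe sets here. Its rate of false calls in data of this kind was therefore not tested. No read depth applies to arrays, and their number limits the precision.

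The 10 members, the gene lists, the rule for named genes and the choice to leave out 3 arrays were made with earlier results of these data known. By that rule the text names all members, up to 3 genes with spread and the highest mean of each pathway list, the 8 genes most like the members and up to 2 genes of a cell type list. Adipoq, Lep, Retn, Plin1, Rxra, Rxrb and Cyp8b1, and in a figure Angptl4, were added after their values were seen. Promoter sequences and gene positions are from RefSeq on GRCm38.p6. Protein sequences were not used here. The alternatives were quantile normalization, median centring, a filter on low values, probe sets with spread alone, a trend and robust prior in limma, the replicate number as a block, the exact Wilcoxon test, rank products and leaving out arrays.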

Additional observations from a re-analysis of the deposited data

How the results depend on the processing

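For each of the 7 genes with spread the difference kept its sign under every alternative run, 147 values in all from 0.05 to 0.77, and none passed limma (adjusted p from 0.360 to 0.999). The low-value filter, the restriction to probe sets with spread, the prior and the block leave the difference itself unchanged by construction. Those values say nothing of how stable its sign is. The count of members called was 0 under every setting of limma and under the exact Wilcoxon test (1 member at an unadjusted p under 0.05), and 7 under rank products, which called 537 of all probe sets where limma called 0, with 10 of the 537 called in both directions. At an unadjusted p under 0.05 there were 1152 probe sets, 172 after quantile normalization, 112 after median centring and 805 in the Wilcoxon test. Most of the 1152 were nearly constant: of the 607 that were higher with compression only 60 had spread. With limma run on the probe sets with spread alone there were 92, and the lowest adjusted p among the members was 0.570. Quantile normalization and median centring gave the constant members small SDs of their own, up to 0.00713 for Acot2. The median difference over the 10 genes was 0.21 to 0.35 with any 1 array left out. Among the members, moves over 1.5-fold occurred for Cyp4a10 (0.25 in place of 0.42) and Cyp4a31 (0.12 in place of 0.20), both without no-compression replicate 6. The median correlation of 0.693 fell to 0.472 without no-compression replicates 3, 6 and 7 and to 0.0883 within the compression group. The sample titles number the replicates but do not say that equal numbers pair mice, so whether they do is not known. The deviations of same-numbered arrays correlated between −0.49 and 0.34, 2 of 7 above 0.1, and 1 of 7 compression arrays correlated best with its own number. With the replicate number as a block limma called 0 members (lowest adjusted p 0.892), 0 probe sets in all and 1221 at an unadjusted p under 0.05. The mean over several probe sets of a gene could not be taken, since each member has 1. Among the other named genes 9 of 29 had a difference below 0 without the 3 arrays.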

Other observations

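Some genes, picked with their values in view, ran opposite to the PPARA targets. Among the named probe sets with spread the lowest correlations with the average of the 7 genes over the 14 mice were those of Tspan9 (−0.83), a membrane protein of the tetraspanin family, Gjb2 (−0.82), a gap junction protein of hepatocytes, Hsp90b1 (−0.79), a chaperone of the endoplasmic reticulum, and Stra6l (−0.79). Without no-compression replicates 3, 6 and 7 the values were −0.71, −0.51, −0.53 and −0.49. Of 1066 probe sets 2 had an r below −0.8, and the values are given as a description.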
